A study of Mus musculus with 10 samples.

Results

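Of the 55401 genes in a count table from sorted mouse cells, the 10 described here are receptors, ligands and target genes of the Notch pathway: Notch1, Notch2, Notch3, Notch4, Jag1, Jag2, Dll1, Dll4, Hes1 and Hey1. They were chosen by gene symbol, each matched a single row of the table, and all 10 passed the filter on low counts. RNA was sequenced from 5 tumour and 5 pancreas libraries of cells labelled as Schwann cells, which are glial cells of peripheral nerve. The tumour libraries came from pancreatic ductal adenocarcinomas of tamoxifen-inducible KPC mice, and the pancreas libraries from the pancreas of KPC mice that received no tamoxifen. All mice were C57BL/6, treatment began at 6 weeks of age, tamoxifen was given at 20 mg/kg on 5 days, and tissue was taken at 4 months. The same 5 injection days are recorded for the pancreas mice, without tamoxifen. KPC is a model of pancreatic cancer driven by Cre recombinase, and its Cre driver and exact alleles are, in the sources used here, not given. Cells of both groups were sorted for surface NGFR, a receptor of nerve growth factor, by fluorescence. Tumours were digested with a tumour dissociation kit and pancreas with hyaluronidase and collagenase, so that digestion and group cannot be told apart. The table codes the tumour columns COCUL and the pancreas columns CTL, which the labels do not explain. If COCUL stands for co-culture, the values are those of cultured cells.

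Notch is a signalling system between touching cells. Ligands of the Jagged and Delta-like families on one cell bind a Notch receptor on its neighbour, and the pull of ligand endocytosis opens the receptor to cleavage, first by ADAM10 and then by gamma-secretase. The freed intracellular domain enters the nucleus, joins the DNA-binding protein RBPJ and a Mastermind coactivator, and switches on target genes, of which the Hes and Hey repressors are the best known. In peripheral nerve the pathway acts during Schwann cell development and in demyelination after injury, and in the pancreas it is known for its part in the change of acinar cells towards a ductal state.

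Promoter sequence is shown for Jag2, the member with the largest change, for its paralog Jag1, which did not pass the test, and for Notch2, a receptor that rose. Each run is the 250 bases before the transcription start in RefSeq on GRCm38.p6, written 5′ to 3′ on the strand of the gene. Capitals mark CACGCG on either strand, a site that Hes and Hey repressors are known to bind.
Jag2 (chr12:112929496-112929745, minus strand): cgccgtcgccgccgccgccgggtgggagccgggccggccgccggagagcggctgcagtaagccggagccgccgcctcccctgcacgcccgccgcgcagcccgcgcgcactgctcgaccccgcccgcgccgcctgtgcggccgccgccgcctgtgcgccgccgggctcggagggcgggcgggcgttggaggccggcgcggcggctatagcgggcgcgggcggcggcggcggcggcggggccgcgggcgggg
Jag1 (chr2:137116521-137116770, minus strand): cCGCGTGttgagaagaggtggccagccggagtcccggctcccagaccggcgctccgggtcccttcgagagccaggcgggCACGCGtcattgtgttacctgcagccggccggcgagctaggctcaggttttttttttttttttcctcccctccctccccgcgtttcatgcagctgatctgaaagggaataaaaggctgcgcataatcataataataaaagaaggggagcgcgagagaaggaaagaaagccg
Notch2 (chr3:98013288-98013537, plus strand): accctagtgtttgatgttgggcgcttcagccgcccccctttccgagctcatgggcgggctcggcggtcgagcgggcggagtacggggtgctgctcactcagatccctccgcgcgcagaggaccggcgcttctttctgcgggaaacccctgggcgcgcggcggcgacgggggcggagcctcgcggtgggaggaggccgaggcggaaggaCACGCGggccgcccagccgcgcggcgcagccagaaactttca
Such windows were found for 8 members, 9 windows in all, since Dll1 had 2. Hes1 and Hey1 were without an entry. CACGCG occurred in 4 of the 9 windows, those of Notch2, Jag1, Dll4 and the second of Dll1, against 7.62% of 32851 windows of all genes. It lay 42 to 37 bases before the start in Notch2, and in Jag1 it occurred at 249 to 244 and at 171 to 166 bases before the start. TGGGAA, the core of the RBPJ site, was in 0 of the 9 windows and in 21.6% of all windows. GTGGGAA, a longer form that contains it, was in 0 of 9 and in 5.42%, and CACGTG, another Hes and Hey site, in 0 of 9 and in 6.02%. Both strands were searched for each. The Jag2 window was 87.2% G and C with 54 CG pairs, the Jag1 window 57.2% with 20 and the Notch2 window 72% with 34, against medians of 52.4% and 6 over all windows. All 9 member windows were above the median in G and C, and all but that of Notch4 above it in CG pairs. CACGCG itself contains CG pairs, so windows of all genes are an unlike background for it, and the part of base composition was not tested. For Notch3 and the second window of Dll1, the first bases after the start were not found in a GENCODE transcript of the gene. By the gene bounds of GENCODE M21, the windows of Jag2 and Notch1 and the first of Dll1 lie inside the gene. Those of Jag1, Notch2 and Notch4 lie partly inside it. Bases outside the windows were not searched.

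Total estimated counts were 58242278 to 84194616 per tumour library and 60622336 to 89816499 per pancreas library. Tumour and pancreas lay apart on principal component 1 (86.1% of the variance), while component 2 (5.90%) held pancreas replicates 3 and 4 away from the other pancreas libraries. Defining Schwann genes were nearly absent from both groups: Ngfr, the gene of the sorted antigen, had 0 to 14 counts in tumour and 4 to 22 in pancreas libraries, Sox10 had 0 in tumour and 0 to 9 in pancreas, and Foxd3 and Gfra3 had 0 everywhere. Of 10 Schwann markers 7 stayed below 1 CPM (a count scaled to the library total) in every library, and the list summed to 9.80 to 12.6 CPM in tumour and 3.90 to 9.54 in pancreas with Mbp making 50.3% of it. The label is therefore used below as the name the submitters gave, not as a cell type shown by the data. Endothelial markers summed to 205 to 218 CPM in tumour and 328 to 375 in pancreas, of which Cdh5 made 91.6%, while Pecam1, Tek, Tie1, Emcn, Cldn5 and Erg stayed below 1 CPM. Markers of pericytes and smooth muscle summed to 417 to 444 and 626 to 790 CPM with Kcnj8 at 0, tumour first. Ductal epithelial markers summed to 42.3 to 46.1 and 88.5 to 116 CPM with Epcam, Krt8 and Cdh1 below 1. Of that sum Krt19 made 40.7% (24.5 ± 1.54 CPM in tumour and 34.7 ± 4.21 in pancreas). Means of single genes in this paragraph are CPM also scaled for library composition, as described below, unlike the sums. Cftr was at 1.51 ± 0.255 and 54.55 ± 9.80 CPM, and Sox9 at 15.1 ± 1.11 and 12.6 ± 3.64. Fibroblast markers summed to 98.2 to 119 and 499 to 593 CPM, tumour first. In the fibroblast list Thy1 made 56.5% of the sum (3.99 ± 0.723 CPM in tumour and 392 ± 25.2 in pancreas). Col3a1 (42.8 ± 7.24 and 162 ± 30.6) and Pdpn (11.7 ± 0.523 and 19.4 ± 3.90) were also lower in tumour, and Pdgfra went the other way (45.1 ± 3.35 and 12.4 ± 1.80). Col1a1, Col1a2 and Dcn averaged at most 1.54 CPM in either group, and Lum and Dpt stayed below 1 in every library. Macrophage markers summed to 15.7 to 19.4 CPM in tumour and 4.21 to 14.3 in pancreas with Adgre1, C1qa and C1qb at 0. Of that sum Csf1r made 49.8% (6.93 ± 0.874 CPM in tumour and 6.04 ± 2.58 in pancreas), and Cd68 was at 9.31 ± 1.89 and 3.26 ± 1.74. Acinar markers summed to 1.80 to 2.84 and 0.814 to 1.48, mostly Cela1 (86.9%). The granulocyte and mast cell list (0.395 to 1.02 and 3.39 to 4.07), the pan-leukocyte list (0.380 to 0.979 and 0.886 to 1.35), the lymphoid list (0.0535 to 0.371 and 0.410 to 0.624) and the endocrine list (0 to 0.292 and 0.0660 to 0.173) lay near the floor. Apart from the endocrine list (exact two-sided permutation p = 1), each sum differed between the groups. The adjusted p was 0.0097 for 9 lists and 0.0175 for the pan-leukocyte list (exact two-sided permutation test, n = 5 against 5). The exact p of those 9 lists, 0.00794, is the smallest this test can give and is reached whenever the groups do not overlap. Levels of 54.6% of all tested genes did not overlap either. Kit made 93.9% of the granulocyte and mast cell sum, and Coro1a 93.9% of the pan-leukocyte sum.

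Below, levels are CPM scaled with TMM factors (a normalization for library composition), and each log2 fold change is the tumour value minus the pancreas value, given ± SE and tested with edgeR's quasi-likelihood test and adjusted by the Benjamini-Hochberg method over 17548 genes. Of the 10 members 3 were higher in tumour (Jag2, Notch3 and Notch2), 2 were lower (Hes1 and Notch1) and 5 did not pass an adjusted p of 0.05 (Notch4, Jag1, Dll1, Dll4 and Hey1). Across the transcriptome 65.8% of tested genes passed, 32.4% higher and 33.4% lower, so the members passed no more often than genes in general. The median absolute log2 fold change was 0.50 over the members and 0.54 over all tested genes. Levels in tumour and pancreas libraries did not overlap for 5 members, which are the same 5 that passed, and for 54.6% of all tested genes. Of the members that passed, Jag2 and Hes1 changed by more than 2-fold, as 23% of tested genes did.

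**Figure D1:**
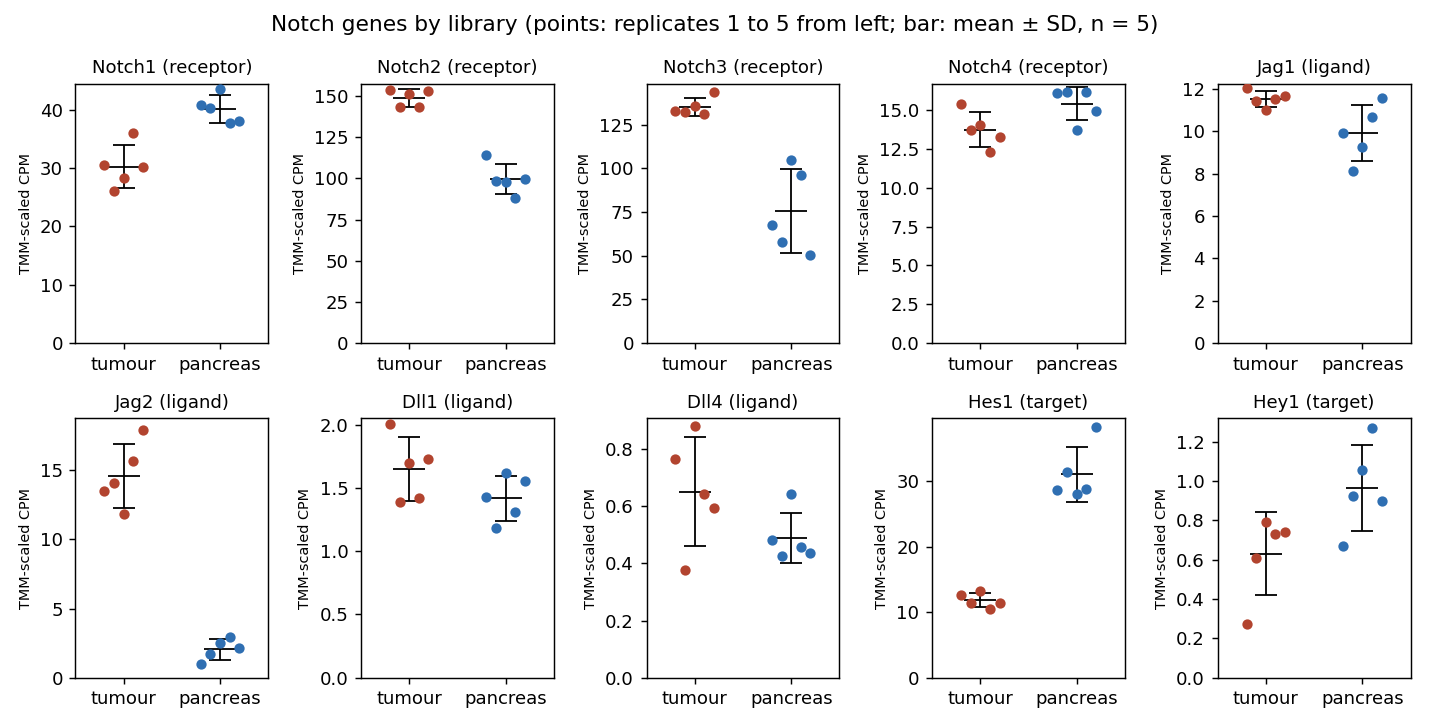
Each panel plots 1 member, with TMM-scaled CPM on the vertical axis (from 0) and 5 tumour libraries left of 5 pancreas libraries; points are replicates 1 to 5 from left to right and bars give mean ± SD. Jag2, Notch2 and Notch3 lie higher in every tumour library than in any pancreas library, Hes1 and Notch1 lie lower in every one, and the other panels overlap.

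Among the receptors, Notch2 and Notch3 rose in tumour and Notch1 fell, while Notch4 did not pass. Notch3, the receptor best known from pericytes and vascular smooth muscle, had 133, 132, 136, 131 and 144 CPM in tumour replicates 1 to 5, against 67.8, 57.6, 105, 96.2 and 50.5 CPM in pancreas replicates 1 to 5. The tumour libraries lay close together and above all pancreas libraries, which fell into a higher pair, replicates 3 and 4, and a lower set of 3. Notch3 averaged 135 ± 5.13 CPM in tumour and 75.4 ± 23.9 in pancreas (SD, n = 5 each), 1.79-fold higher (log2 fold change 0.84 ± 0.18, edgeR adjusted p = 0.00182). Without pancreas replicates 3 and 4 the pancreas mean was 58.6 ± 8.70 CPM (SD, n = 3) and the log2 fold change 1.20 (edgeR adjusted p = 3.9e-08). In these bulk samples fewer cells of a type and less RNA per cell cannot be told apart. Of the pericyte and smooth muscle markers 8 could be tested, and 3 were higher in tumour (Cspg4, Des and Myh11) and 5 lower. Of all tested genes 32.4% were higher and 33.4% lower. Des (3.04 ± 0.824 CPM in tumour and 0.257 ± 0.181 in pancreas) and Myh11 (1.83 ± 0.403 and 0.486 ± 0.232) were low. So was Cnn1, which went the other way (0.126 ± 0.0919 and 1.44 ± 0.127). Rgs5, Kcnj8 and Abcc9 stayed below 1 CPM in every library. Acta2, smooth muscle actin, was at 1.74 ± 0.153 CPM in tumour and 266 ± 45.1 in pancreas, so that this 1 gene made most of the difference in the summed level. The pericyte proteoglycan gene Cspg4 was at 248 ± 4.58 CPM in tumour and 171 ± 19.8 in pancreas, and Pdgfrb, a pericyte receptor gene, at 164 ± 9.83 and 253 ± 19.7 CPM. The part of these cells in the Notch3 result was not tested.

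Notch2, a broadly expressed receptor, had 154, 143, 152, 144 and 153 CPM in tumour replicates 1 to 5, against 114, 98.6, 98.0, 88.1 and 99.4 CPM in pancreas replicates 1 to 5. No pancreas library reached the lowest tumour library. The means were 149 ± 5.28 CPM in tumour and 99.6 ± 9.29 in pancreas, or 1.496-fold (log2 fold change 0.58 ± 0.06, edgeR adjusted p = 1.3e-06), and 47.1% of tested genes had a larger absolute change. Unlike Notch3 and Jag2, it was not higher in pancreas replicates 3 and 4 than in the other pancreas libraries. Notch1, the receptor with the best studied role in development and T cell leukaemia, moved the other way. Its levels were 30.5, 26.0, 28.4, 36.0 and 30.3 CPM in tumour replicates 1 to 5, against 40.9, 40.4, 43.7, 37.8 and 38.2 CPM in pancreas replicates 1 to 5. The groups were separated by a narrow gap, between tumour replicate 4 and pancreas replicate 4. Notch1 averaged 30.2 ± 3.69 CPM in tumour and 40.2 ± 2.38 in pancreas, with a log2 fold change of -0.41 ± 0.08 (edgeR adjusted p = 4.7e-04).

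Notch4, known chiefly from vascular endothelium, had 15.4, 13.8, 14.0, 12.3 and 13.3 CPM in tumour replicates 1 to 5, against 16.1, 16.2, 13.7, 16.2 and 14.98 CPM in pancreas replicates 1 to 5. The groups overlapped. It averaged 13.8 ± 1.13 CPM in tumour and 15.4 ± 1.08 in pancreas (log2 fold change -0.17 ± 0.08) and did not pass (edgeR adjusted p = 0.0913). Without tumour replicate 1 or pancreas replicate 3 the adjusted p was 0.0491 or 0.0421 by the same test. Most of the defining endothelial genes were near 0 in both groups, as given above. Of the 6 endothelial markers that could be tested, 0 were higher in tumour and 2 were lower, Cdh5 and Kdr. Of all tested genes 32.4% were higher and 33.4% lower. Cdh5 was at 191.4 ± 4.45 CPM in tumour and 332.7 ± 15.4 in pancreas (log2 fold change -0.80). Kdr was at 9.321 ± 0.744 CPM in tumour and 33.52 ± 5.11 in pancreas (log2 fold change -1.85). The part of endothelial cells in the Notch4 result was not tested.

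Compared per kilobase of exon, Notch3 and Notch2 were the most abundant receptors in both groups. Notch3 stood at 16.7 ± 0.634 CPM per kilobase in tumour and 9.32 ± 2.96 in pancreas, and Notch2 at 13.8 ± 0.490 and 9.24 ± 0.861, so that the pair differed in tumour by more than the spread between libraries but not in pancreas. Notch1 followed at 2.13 ± 0.259 CPM per kilobase in tumour and 2.82 ± 0.167 in pancreas, then Notch4 at 1.71 ± 0.140 and 1.91 ± 0.134. As a share of the summed receptor level per kilobase, Notch1 made 6.19 ± 0.791% in tumour and 12.2 ± 1.20% in pancreas. Notch3 made 48.6 ± 0.953% and 39.3 ± 8.25%, Notch2 40.2 ± 0.612% and 40.2 ± 6.19%, and Notch4 4.96 ± 0.392% and 8.33 ± 1.25%. The Notch3 share was 47.3 to 49.7% in the tumour libraries, 48.3% and 48.1% in pancreas replicates 3 and 4, and 31.2 to 35.2% in the other pancreas libraries. The receptors together summed to 34.4 ± 1.02 CPM per kilobase in tumour and 23.3 ± 2.75 in pancreas (SD, n = 5 each).

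**Figure D2:**
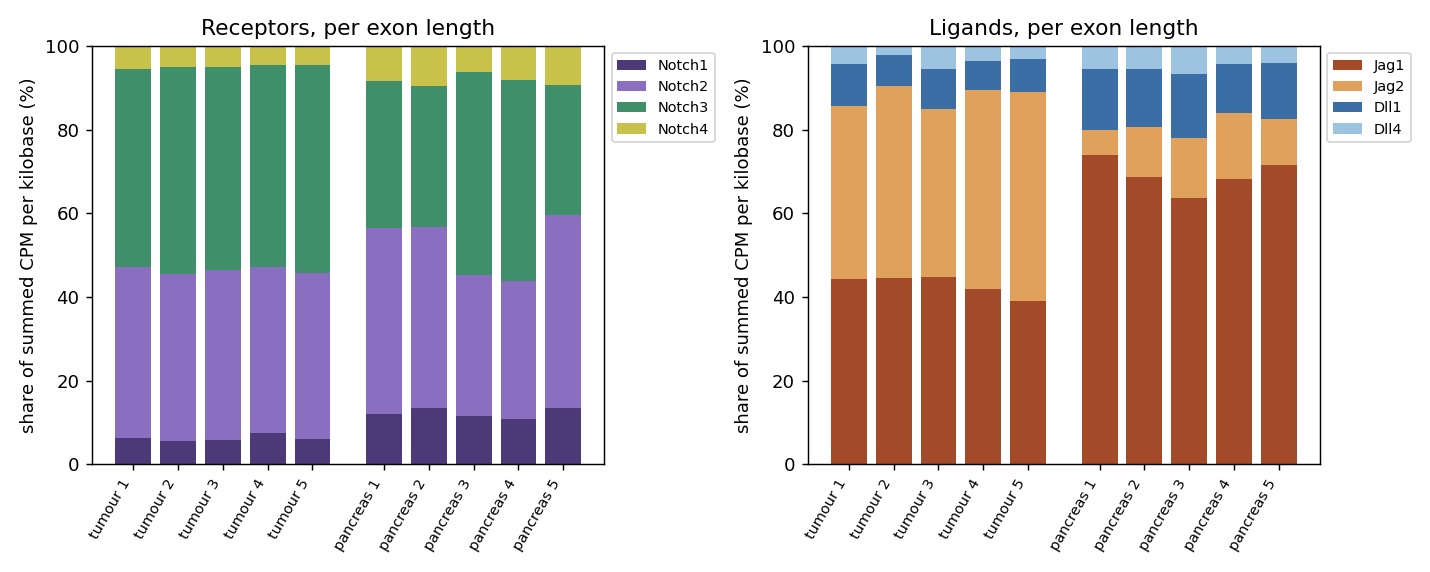
Stacked bars give the share (%) of each gene in the CPM per kilobase of exon summed over 4 receptors (left) or 4 ligands (right), for tumour replicates 1 to 5 and then pancreas replicates 1 to 5. Jag2 takes 40.2 to 50.1% of the ligand sum in tumour and 6.10 to 15.7% in pancreas, and the Notch1 share is smaller in every tumour library than in any pancreas library.

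Among the ligands, Jag2 rose strongly in tumour and the other ligands did not pass. Jag2, a Jagged ligand with a known role in limb, craniofacial and inner ear development, had 13.5, 14.1, 11.8, 15.7 and 17.9 CPM in tumour replicates 1 to 5, against 0.979, 1.70, 2.48, 2.92 and 2.16 CPM in pancreas replicates 1 to 5. The lowest tumour library lay far above the highest pancreas library, pancreas replicate 4. Jag2 averaged 14.6 ± 2.31 CPM in tumour and 2.05 ± 0.745 in pancreas, 7.10-fold higher (log2 fold change 2.83 ± 0.24, edgeR adjusted p = 2.4e-07). Without pancreas replicates 3 and 4 the log2 fold change was 3.15. It ranked 368th from the highest of 17548 tested genes by log2 fold change, and 3.65% of them had a larger absolute one. Its RefSeq promoter window, printed above, held none of the motifs searched, and by GENCODE M21 that window lies inside the gene.

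Jag1, the Jagged ligand required for bile duct and vascular development, had 12.1, 11.5, 11.01, 11.5 and 11.6 CPM in tumour replicates 1 to 5, against 9.91, 8.11, 9.26, 10.7 and 11.6 CPM in pancreas replicates 1 to 5. Only pancreas replicate 5 reached the tumour range. Jag1 averaged 11.5 ± 0.374 CPM in tumour and 9.90 ± 1.32 in pancreas (log2 fold change 0.22 ± 0.10), just short of the threshold (edgeR adjusted p = 0.0659). It passed without pancreas replicate 5 (log2 fold change 0.28, edgeR adjusted p = 0.0206) and under 4 other settings given at the end. Per kilobase of exon, Jag2 and Jag1 did not differ beyond their spread in tumour, at 2.10 ± 0.332 and 1.98 ± 0.0642 CPM per kilobase. In pancreas Jag2 was far below Jag1, at 0.294 ± 0.107 against 1.70 ± 0.227 CPM per kilobase. Accordingly Jag2 made 45.0 ± 4.17% of the summed ligand level per kilobase in tumour and 11.8 ± 3.67% in pancreas, and Jag1 made 42.8 ± 2.50% and 69.2 ± 3.80%. Jag1, Jag2, Dll1 and Dll4 together summed to 4.64 ± 0.348 CPM per kilobase in tumour and 2.46 ± 0.301 in pancreas, below the receptor sums.

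The Delta-like ligands were low in both groups. Dll1, which acts in muscle, marginal zone B cell and somite development, had 2.01, 1.39, 1.70, 1.43 and 1.73 CPM in tumour replicates 1 to 5, against 1.43, 1.19, 1.62, 1.31 and 1.56 CPM in pancreas replicates 1 to 5. The groups overlapped (log2 fold change 0.22 ± 0.18, edgeR adjusted p = 0.313). Dll4, the ligand of sprouting arteries, had 29 to 68 counts per tumour library and 28 to 56 per pancreas library, or 0.652 ± 0.191 and 0.489 ± 0.0880 CPM. The tumour range of 0.376 to 0.883 CPM took in all pancreas libraries, at 0.427 to 0.642 CPM (log2 fold change 0.41 ± 0.30, edgeR adjusted p = 0.248). Dll1 made 8.46 ± 1.34% of the ligand sum per kilobase in tumour and 13.8 ± 1.44% in pancreas, and Dll4 made 3.68 ± 1.23% and 5.22 ± 1.02%.

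Of the target genes, Hes1 fell in tumour and Hey1 did not pass. Hes1, a repressor of differentiation genes that also represses its own promoter, had 12.6, 11.4, 13.2, 10.5 and 11.3 CPM in tumour replicates 1 to 5, against 28.6, 31.4, 28.1, 28.8 and 38.2 CPM in pancreas replicates 1 to 5. The highest tumour library, replicate 3, lay far below the lowest pancreas library, also replicate 3. Hes1 averaged 11.8 ± 1.09 CPM in tumour and 31.0 ± 4.21 in pancreas, 2.62-fold lower (log2 fold change -1.39 ± 0.10, edgeR adjusted p = 3.6e-08). It ranked 1163rd from the lowest of the tested genes, and 15.6% of them had a larger absolute log2 fold change. Per kilobase of exon Hes1 was the third most abundant member in tumour, at 5.81 ± 0.533 CPM per kilobase, below Notch3 and Notch2, and the most abundant in pancreas, at 15.2 ± 2.07. Among all tested genes its level per kilobase stood at the 58.2 percentile in tumour and the 78.4 percentile in pancreas.

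Hey1, a related repressor of heart and vessel development, had 0.274, 0.609, 0.792, 0.732 and 0.742 CPM in tumour replicates 1 to 5, against 0.670, 0.924, 1.06, 1.27 and 0.899 CPM in pancreas replicates 1 to 5. Tumour replicate 1 was the lowest library and pancreas replicate 1 lay inside the tumour range. With 24 to 61 counts per tumour library and 39 to 92 per pancreas library, its log2 fold change was -0.62 ± 0.31 (edgeR adjusted p = 0.0953). Without tumour replicate 1 it was -0.42.

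**Figure D3:**
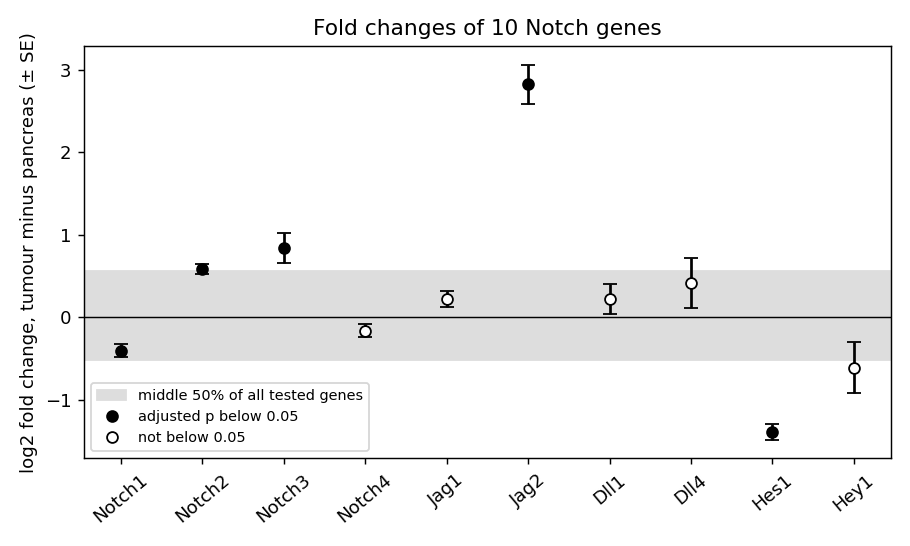
Points give the log2 fold change, tumour minus pancreas, of each member with its SE; filled points passed an edgeR adjusted p of 0.05 and the grey band holds the middle 50% of all tested genes (-0.51 to 0.56). Jag2 (2.83) and Hes1 (-1.39) stand farthest from the band, Notch3 (0.84) lies above it and Notch2 (0.58) at its upper edge.

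Besides these members, 63 genes that act at other steps of the pathway were listed by role, and 56 could be tested. Of these, 23 were higher in tumour and 21 lower, or 44 of 56 past the test, against 65.8% of all tested genes, and their median absolute log2 fold change (0.36) was below that of all tested genes (0.54). The counts per role that follow stand beside 32.4% higher and 33.4% lower of all tested genes, and in lists this short they single out no step. The nuclear complex, in which RBPJ binds DNA and Mastermind proteins activate transcription, had 4 members higher and 3 lower of 8. Rbpj itself rose, with 279, 312, 309, 292 and 309 CPM in tumour replicates 1 to 5, against 144, 110, 153, 148 and 86.2 CPM in pancreas replicates 1 to 5. The groups were far apart, at 300 ± 14.1 and 128 ± 28.8 CPM, tumour first, and the change was 2.34-fold (log2 fold change 1.23 ± 0.14, edgeR adjusted p = 9.4e-06). The coactivator genes Maml1 (124 ± 8.51 CPM in tumour and 68.3 ± 4.08 in pancreas) and Maml3 (2.07 ± 0.383 and 1.03 ± 0.248) rose as well.

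Ligand endocytosis, the step that pulls on the bound receptor, had 4 members higher and 1 lower of 6. Of the ubiquitin ligase genes that start it, Mib1 rose to 274 ± 6.51 CPM in tumour, against 137 ± 7.06 in pancreas (2.00-fold, edgeR adjusted p = 5.5e-10). Neurl1b (6.72 ± 0.817 CPM in tumour and 2.66 ± 0.777 in pancreas) and Mib2 (61.0 ± 3.50 and 40.4 ± 4.29) rose as well. Neurl1a did not pass, at 4.29 ± 0.466 CPM in tumour and 4.67 ± 1.55 in pancreas (edgeR adjusted p = 0.633). The proteases had 5 higher and 3 lower of 10. The gamma-secretase subunit genes Aph1c (3.52 ± 0.548 CPM in tumour and 1.14 ± 0.492 in pancreas) and Aph1b (24.3 ± 1.36 and 14.2 ± 1.42) rose, and these close paralogs may share reads. Their paralog Aph1a fell, at 119 ± 4.43 CPM in tumour and 137 ± 6.55 in pancreas (edgeR adjusted p = 0.00135). The subunit gene Psenen fell too (29.0 ± 1.31 and 34.8 ± 3.91 CPM, edgeR adjusted p = 0.00800), and Ncstn did not pass (202 ± 5.82 and 199 ± 15.7 CPM, edgeR adjusted p = 0.736). Neurl1a, Aph1a, Psenen and Ncstn were named after their values were seen. Adam10, which makes the first cut after ligand binding, rose slightly (285 ± 16.8 CPM in tumour and 218 ± 26.9 in pancreas). Furin, the protease that cuts the receptor on its way to the cell surface, fell to 95.7 ± 2.45 CPM in tumour, against 185 ± 7.79 in pancreas (log2 fold change -0.95 ± 0.04, edgeR adjusted p = 5.2e-10).

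Enzymes that attach sugars to the receptor had 3 higher and 3 lower of 7 tested. Pofut1, which adds the first fucose, rose to 79.7 ± 2.63 CPM in tumour, against 48.8 ± 9.93 in pancreas. The fringe genes, whose enzymes extend that fucose and change which ligand a receptor prefers, fell where they could be tested. Rfng was at 17.2 ± 1.17 CPM in tumour and 32.2 ± 2.43 in pancreas, Lfng at 7.02 ± 0.839 and 11.2 ± 0.499, and Mfng had 0 counts in all libraries. Of the other ligand genes, Dlk2, which lacks the receptor-binding domain of the classical ligands, passed as lower in tumour although the groups overlapped, at 37.7 ± 4.34 CPM in tumour and 72.7 ± 26.9 in pancreas (log2 fold change -0.95 ± 0.24, edgeR adjusted p = 0.00524). It reached 97.9 and 101 CPM in pancreas replicates 3 and 4 and 36.7 CPM in pancreas replicate 5. Without replicates 3 and 4 its log2 fold change was -0.55 (edgeR adjusted p = 0.0233). Dner did not pass, and Dll3 and Dlk1 were too low to test.

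Negative regulators had 3 higher and 5 lower of 10, and corepressors 3 and 3 of 8. The ubiquitin ligase gene Dtx4 was lower (39.4 ± 1.44 CPM in tumour and 90.5 ± 15.2 in pancreas, log2 fold change -1.20 ± 0.09, edgeR adjusted p = 1.1e-07), and so were the corepressor gene Cir1 (26.3 ± 2.42 and 39.9 ± 1.80), L3mbtl3 (21.7 ± 2.45 and 27.9 ± 2.75) and Ctbp1 (148 ± 7.18 and 185 ± 5.21). The histone demethylase gene Kdm5a was higher, at 168 ± 3.02 CPM in tumour and 109 ± 11.3 in pancreas. Other known targets had 2 higher and 3 lower of 7 tested. Myc was at 65.1 ± 3.75 CPM in tumour and 140 ± 23.6 in pancreas (log2 fold change -1.10 ± 0.10, edgeR adjusted p = 7.9e-07). Nrarp, a feedback inhibitor that Notch induces, was at 5.18 ± 0.470 and 7.43 ± 1.45 CPM (log2 fold change -0.52 ± 0.14, edgeR adjusted p = 0.00536), and the cell cycle inhibitor gene Cdkn1a at 318 ± 17.4 and 402 ± 42.2 CPM, tumour first. The 2 higher ones, named after their values were seen, were Ccnd1 (403 ± 23.2 and 341 ± 48.3 CPM) and Dtx1 (1.06 ± 0.239 and 0.570 ± 0.351 CPM). Dtx1 passed narrowly (edgeR adjusted p = 0.0480) and did not pass in 9 of 18 alternatives, and Ccnd1 did not pass in 3 of 19. Hes5, Heyl, Hey2 and Hes2 were too low to test: Hes5 had 0 to 5 counts per tumour library and 0 to 4 per pancreas library, and Heyl 0 in tumour and 0 to 4 in pancreas.

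**Figure D4:**
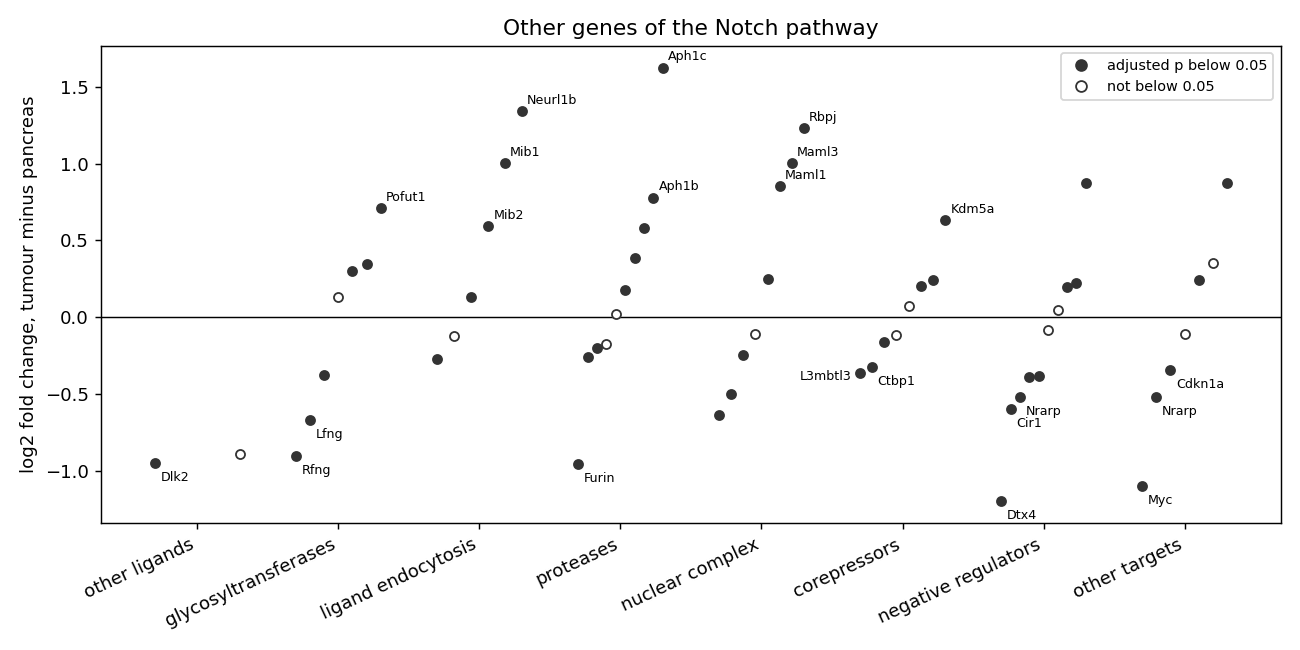
Each point is a tested pathway gene outside the 10 members, grouped by role on the horizontal axis, with its log2 fold change, tumour minus pancreas, on the vertical axis; filled points passed an edgeR adjusted p of 0.05, and Nrarp and Dtx1 stand in 2 groups each. Every group but the other ligands, where Dlk2 fell, has filled points on both sides of 0, and Rbpj (1.23), Maml3 (1.00) and Maml1 (0.85) head the nuclear complex.

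Pancreas replicates 3 and 4 differed from the other pancreas libraries in several of these genes at once. They had the highest pancreas levels of Notch3, Jag2, Hey1 and Dlk2, and of Apod, a lipid carrier gene outside the pathway. The same held for other pathway genes, among them Rbpj, Adam10, Pofut1, Aph1c and Cdkn1a, while Myc was lowest in these libraries. Pancreas replicates 3 and 4 also stood apart across the transcriptome, on component 2 as given above. The share of all tested genes highest in both was not counted, so the pattern is not shown to be particular to Notch genes. Apod stood at 13.2 to 20.6 CPM in tumour, at 1029 and 1000 CPM in these pancreas libraries and at 214 to 411 CPM in the other pancreas libraries. Hey1, for instance, had 1.06 and 1.27 CPM in these 2 and 0.670 to 0.924 in the other pancreas libraries. With both left out, 3 members were still higher and 2 lower in tumour, and 62.9% of all tested genes passed.

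**Figure D5:**
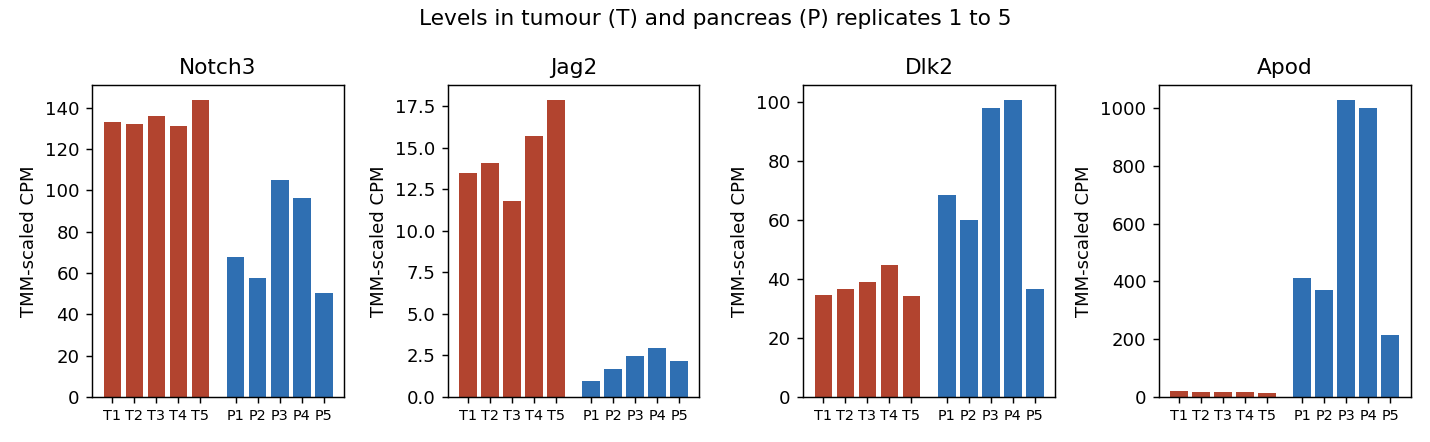
Bars give TMM-scaled CPM of Notch3, Jag2, Dlk2 and Apod in tumour replicates 1 to 5 (T1 to T5) and pancreas replicates 1 to 5 (P1 to P5), from 0. In each panel P3 and P4 are the highest pancreas libraries, with 105 and 96.2 CPM for Notch3 and 1029 and 1000 CPM for Apod.

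In mm10 (GENCODE release M21) the 5 members that passed are protein-coding genes. Notch1 (ENSMUSG00000026923.15) lies on chromosome 2 at 26457903 to 26516663, Notch2 (ENSMUSG00000027878.11) on chromosome 3 at 98013527 to 98150361, and Notch3 (ENSMUSG00000038146.8) on chromosome 17 at 32120820 to 32166852. Jag2 (ENSMUSG00000002799.6) lies on chromosome 12 at 112907819 to 112929776 and Hes1 (ENSMUSG00000022528.8) on chromosome 16 at 30064384 to 30067796. The library kit does not mark strand, so reads from a gene and one overlapping it on the other strand cannot be told apart. Exons of Gm17276, on the opposite strand, cover 6.03% of the Notch3 exon length, and that gene had 91 to 105 counts in tumour and 37 to 57 in pancreas, against 8723 to 11642 and 3927 to 9140 for Notch3. Exons of 0610009E02Rik cover 7.50% of the Notch1 exon length, with 13 to 40 counts in tumour and 7 to 47 in pancreas. For Dll1 an overlap of 20.6% with A930024N18Rik was not analysed here. For Dll4 the overlap is 5.56% (Gm14207, opposite strand, 0 to 8 counts in tumour and 3 to 17 in pancreas, the highest in pancreas replicate 3). For Notch2 the overlap is 5.02% (Gm42820, same strand, 2 to 18 counts in tumour and 3 to 19 in pancreas). No gene of that annotation shares exon bases with Jag1, Jag2, Notch4, Hes1 or Hey1.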

How the data were processed

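The deposited values are estimated counts per gene and library, made by the authors with HISAT, HISAT2 and HTSeq on mm10, per the submitters' processing notes, with settings not stated there. All were whole numbers. A value of exactly 4 occurred 1.69 to 2.07 times as often as the mean of 3 and 5, so a fragment seems to add several counts, and no counting interval is given. Libraries were made from 2 µg of RNA, per the labels. Groups and replicate numbers came from the titles, and 0 columns belonged to no sample.

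Genes were kept by filterByExpr (minimum count 10, minimum total 15), scaled by TMM (factors 1.03 to 1.04 in tumour, 0.960 to 0.972 in pancreas) and tested with edgeR 4.0.16 in R 4.3.3 (robust quasi-likelihood F test on all 10 libraries without covariate, Benjamini-Hochberg adjustment, threshold 0.05). Each SE is the absolute log2 fold change over the root of F. The code was tested on simulated counts. Alternatives used limma 3.58.1 and DESeq2 1.42.0. Marker sums are CPM of total counts, compared as log2(CPM + 1) over all 252 assignments and adjusted over 11 lists. Exon lengths are from GENCODE M21. Pairs of libraries of a group differed by a chi-square per degree of freedom of at least 3.01 on counts divided by 4, so none was counted as a copy. The value was 3.01 to 6.17 between tumour libraries and 3.6 between pancreas replicates 3 and 4. It was 8.23 to 44 between the other pairs of pancreas libraries. Whether the closer libraries share a source could not be told.

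The members, gene lists and tests were chosen with earlier results of these data known. Per pathway list up to 3 genes past the test were named, those with the largest absolute log2 fold change among those averaging 1 CPM or more, plus Rbpj, Adam10, Lfng, Hes5, Heyl, Nrarp and 1 gene that is not reported here. The labels do not tie libraries to animals. The p-values therefore rest on sample-to-sample spread that may be technical.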

Additional observations from a re-analysis of the deposited data

Results flagged for a closer look

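Within a group, 8 of the 92 sets of 5 values looked at had a library far from the others (gap to the nearest over 0.71 of the range). For normally distributed values about 1 in 20 sets would. Sets with only 1 value above 0, as for Hes5 and Heyl below, pass by construction, so the count of flags cannot be set against that rate. Dll4 in pancreas replicate 3, at 0.642 CPM, lay above 0.427 to 0.481 CPM in the other pancreas libraries. The overlapping gene Gm14207 also had its highest count, 17, in that library, and its part in the Dll4 value was not tested. Maml3 in tumour replicate 3, at 2.74 CPM, lay above 1.77 to 1.99 in the other tumour libraries. Hes5 was above 0 in tumour replicate 3 (0.0649 CPM) and pancreas replicate 4 (0.0590 CPM) alone, and Heyl in pancreas replicate 5 (0.0514 CPM) alone. The fibroblast marker sum was 499 CPM in pancreas replicate 5, below 572 to 593 in the other pancreas libraries. The lymphoid marker sum was 0.371 CPM in tumour replicate 4, above 0.0535 to 0.131 in the other tumour libraries, and 0.624 CPM in pancreas replicate 3, above 0.410 to 0.445 in the other pancreas libraries.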

How the results depend on the processing

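Across 19 alternatives, Jag2 (log2 fold change 2.66 to 3.15), Hes1 (-1.48 to -1.29), Notch2 (0.51 to 0.68), Notch3 (0.73 to 1.20) and Notch1 (-0.48 to -0.31) kept their direction and their call, and Dll1, Dll4 and Hey1 stayed outside it. Dll4 and Hey1 had no value where at least 1 CPM was required in 5 libraries. Jag1 passed when libraries were scaled by size only (0.32), with at least 1 CPM in 5 libraries (0.23), by DESeq2 (0.23) and by limma-voom (0.23), and leaving out 1 library at a time gave 0.15 to 0.28. For Notch4 the same gave -0.21 to -0.13. The cause was not tested. With size-only scaling the median over all genes was 0.10, and 6635 of all genes were higher and 4986 lower, 27 and 18 of the pathway genes, and 4 and 2 of the members. Whether the replicate numbers pair the libraries could not be told. Correlations of deviations from the group means between libraries of the same number were -0.0326 to 0.0940, too small to decide it. Tumour replicates 1, 2 and 5 correlated best with the pancreas library of their own number, and tumour replicates 3 and 4 with another. With the replicate number as a block 3 members were higher and 2 lower, 23 and 21 of the pathway genes, and 5587 and 5598 of all genes. The Schwann marker sum differed by 0.69 on the log2 scale, by 0.60 with TMM-scaled CPM (adjusted exact permutation p = 0.0524), and by 0.54 to 0.82 with 1 library left out (adjusted p = 0.0524 without tumour replicate 4 or 5). The endocrine sum differed by -0.0036, and by -0.0587 to 0.0337 with 1 library left out.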
